A study of Mus musculus with 25 samples.

Results

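Potassium channel genes were taken as every gene of the count table whose symbol begins with Kcn, leaving out symbols that end in os or hold -ps. The members were chosen by symbol alone, so that no measured value entered the rule, although the family was picked for description when results of these libraries were already known. Of 52636 genes in the table, 97 were members. They comprised 40 voltage-gated alpha subunits (Kcna, Kcnb, Kcnc, Kcnd, Kcnf, Kcng, Kcnh, Kcnq, Kcns and Kcnv), 17 auxiliary subunits and regulators (Kcnab, Kcne, Kcnip, Kcnmb and *Kcnrg*), 8 calcium- or sodium-activated alpha subunits (Kcnma, Kcnn, Kcnt and Kcnu), 15 inward rectifiers (Kcnj) and 14 tandem pore domain channels (Kcnk). The last 3 members were the antisense RNAs *Kcnq1ot1*, *Kcnmb4os1* and *Kcnmb4os2*, which encode no channel but fall under the rule. The symbols *Kcnd3os* and *Kcnab3os* were dropped.

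RNA was sequenced from the *soleus*, a slow postural muscle of the hindlimb, of 25 mice of 12 weeks, with 1 library per mouse. All mice were C57BL/6 animals with floxed *Dnmt3a* alleles (exon 19), and mD3AKO mice carried in addition a Cre recombinase under the promoter of muscle creatine kinase, a gene of muscle fibers. Expression of *Dnmt3a* by cell type was not measured in these whole-muscle libraries. The 5 WT (*Dnmt3a* flox/flox) and 7 mD3AKO mice at rest were placed on a sham treadmill, and 7 WT and 6 mD3AKO mice were killed 60 minutes after 30 minutes of running at 16 m/min on a 5% incline. Of the 25 mice, 13 were male and 12 female, and every group held both sexes. Levels are given as CPM, the reads of a gene per 1000000 reads of its library after TMM scaling.

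Muscle excitability depends on potassium leaving the fiber. Inward rectifiers hold the resting potential and, as KATP channels, couple it to the energy state of the cell. Voltage-gated channels repolarize the membrane after each action potential, and calcium-activated channels do so when calcium rises. Auxiliary subunits change the gating or the surface number of the pores they bind, and tandem pore channels carry background current.

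*Dnmt3a* was lower in every mD3AKO library (34.5 to 53.9 CPM, n = 13) than in every WT library (93.4 to 130.5 CPM, n = 12). Between 22671457 and 37431801 reads were counted per library, so that 1 CPM rested on about 32.2 reads at the median depth. One rested male mD3AKO library, mouse 15, stood apart, with 39.6% of its counts on gene models of ribosomal RNA and a summed member level of 570 CPM before TMM scaling, against 743 to 921 in the other 24. The 7 skeletal muscle fiber markers summed to 60342 to 80951 CPM in all libraries. The *soleus* is made of many cell types, and in bulk RNA fewer cells of a type and less RNA per cell cannot be told apart.

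Of the 97 members, 55 passed the filter on low counts and entered the tests among 16340 genes. These were 24 voltage-gated, 10 auxiliary, 7 calcium- or sodium-activated, 7 inward rectifier and 6 tandem pore genes and *Kcnq1ot1*. The remaining 42 were not tested, and 16 of them had at most 3 counts in every library. *Kcnj1*, the renal outer medullary channel, had no count in any library, which allows a level of up to 0.132 CPM at the lowest and 0.0801 CPM at the highest depth. *Kcnj5*, *Kcna4*, *Kcne1* and *Kcne2*, subunits known from cardiac potassium currents, were also under the filter, with 10, 28, 21 and 19 reads over all 25 libraries.

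Compared per kilobase of exon, a few genes made up most of the potassium channel RNA. *Kcna7*, a voltage-gated subunit of the Shaker family found in skeletal muscle, was highest, at 51.0 ± 7.96 CPM per kb (SD, n = 25, range 38.5 to 64.9). *Kcnj2*, which encodes the Kir2.1 rectifier that sets the resting potential, stood at 28.9 ± 7.49 CPM per kb, and *Kcnj11*, the Kir6.2 pore of the muscle KATP channel, at 28.9 ± 3.22. *Kcna7* was above *Kcnj2* in 24 of 25 libraries, while the order of *Kcnj2* and *Kcnj11* turned with exercise. *Kcnj2* was above *Kcnj11* in 10 of 12 rested mice (means 35.1 and 28.8 CPM per kb) and in 2 of 13 exercised mice (23.2 and 29.0). These 3 genes held 59.0% of the summed level of the members, and the 10 highest held 86.5%.

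Below them stood *Kcnj8*, the Kir6.1 pore of vascular KATP channels, at 12.0 ± 1.80 CPM per kb, and *Kcnj12*, the Kir2.2 rectifier, at 10.8 ± 1.42. *Kcnj8* exceeded *Kcnj12* in 18 of 25 libraries. Among calcium-activated subunits, *Kcnma1*, the pore of the large-conductance BK channel, stood at 7.00 ± 1.21 CPM per kb, ahead of the small-conductance channel genes *Kcnn1* (4.65 ± 0.63) and *Kcnn3* (1.16 ± 0.31). *Kcna5* was above *Kcnn1* in 0 of 12 rested mice (means 2.88 and 4.55 CPM per kb) and in 13 of 13 exercised mice (7.06 and 4.75).

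The auxiliary and tandem pore classes were low. *Kcne1l*, *Kcne4* and *Kcnrg* led the auxiliary class with 2.43 ± 1.72, 2.29 ± 1.33 and 0.447 ± 0.133 CPM per kb over all mice pooled. The order of *Kcne1l* and *Kcne4* differed by genotype and by exercise. In WT mice *Kcne1l* was above *Kcne4* in 2 of 5 at rest (means 0.930 and 1.02 CPM per kb) and in 0 of 7 after exercise (0.932 and 3.38). In mD3AKO mice it was above *Kcne4* in 7 of 7 at rest (3.96 and 1.06) and in 3 of 6 after exercise (3.63 and 3.52). *Kcnk2*, *Kcnk6* and *Kcnk5* led the tandem pore class with 0.855 ± 0.212, 0.735 ± 0.191 and 0.499 ± 0.164. By class, over all mice pooled, voltage-gated genes held 43.4% of the summed level and inward rectifiers 44.0%. Calcium- or sodium-activated genes held 7.32%, auxiliary genes 3.50% and tandem pore genes 1.56%. These shares were not split by exercise, with which *Kcnj2* and *Kcnj8* fell and *Kcna5* rose. They therefore give no order of voltage-gated genes and inward rectifiers within a group. The summed level of all members was 188 ± 6.90 CPM per kb in rested WT mice (n = 5), 180 ± 10.2 after exercise (n = 7), 187 ± 17.0 in rested mD3AKO mice (n = 7) and 183 ± 9.84 after exercise (n = 6), which are ranges that overlap.

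**Figure D1:**
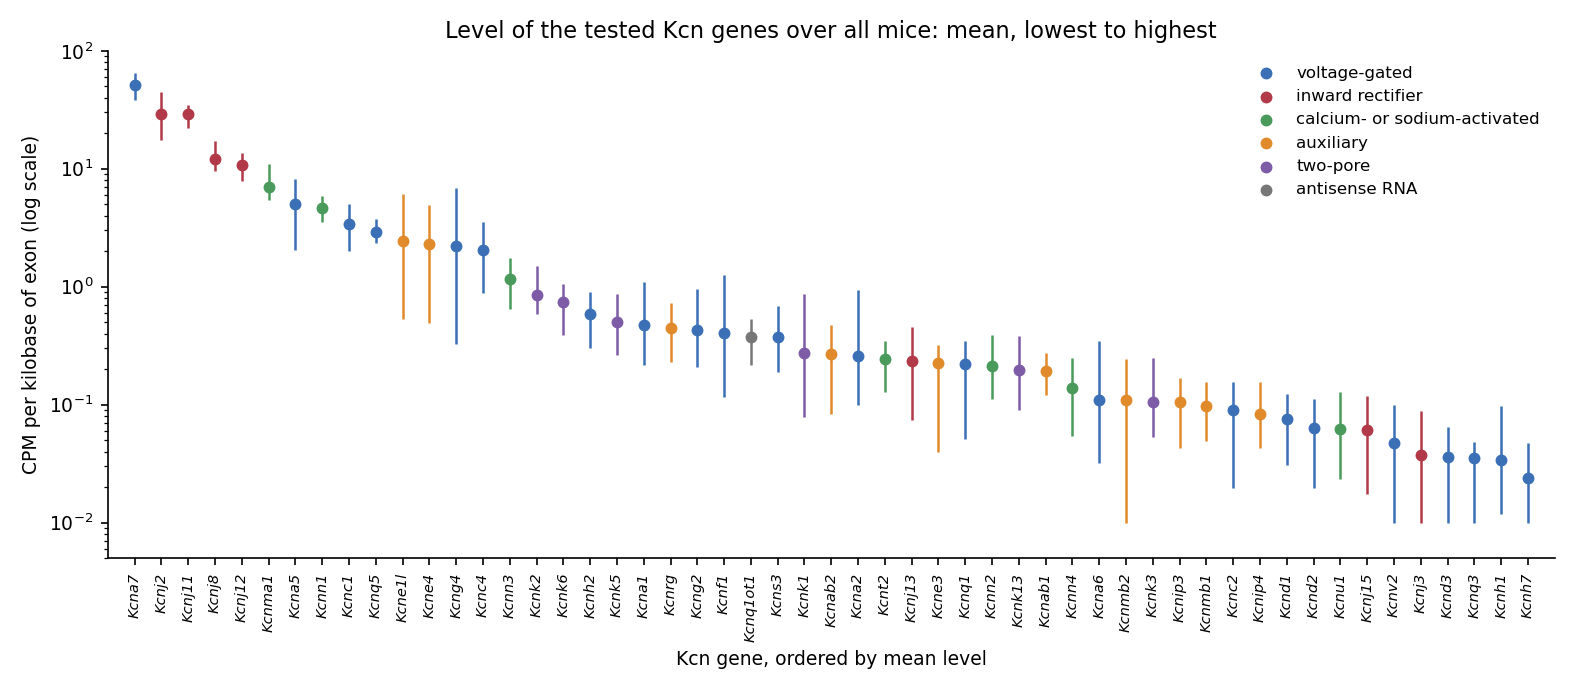
Mean level of 53 of the 55 tested Kcn genes in CPM per kilobase of exon on a log axis, ordered from highest to lowest and coloured by class (tandem pore genes in purple), with vertical lines from the lowest to the highest of 25 mice (lines that reach under 0.01 are drawn to 0.01). Kcna7, Kcnj2 and Kcnj11 lie above the rest, and Kcne1l, Kcne4 and Kcng4 span wider ranges than their neighbours.

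The median spread between mice of a group was wider for the members than over all genes above the same minimum. Over the 31 tested members with a mean of at least 1 CPM, the median SD within groups was 0.299 on the log2(CPM + 0.5) scale, against 0.169 over the 12695 genes with at least this mean, which were not matched on level. The groups hold both sexes, so that a sex difference adds to this spread. *Kcnj8* (0.153) and *Kcna5* (0.154) were the steadiest of these members. *Kcng4* (1.23), *Kcna2* (0.710), *Kcnf1* (0.588) and *Kcna1* (0.552) were the most variable.

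Exercise raised 3 and lowered 3 of the 55 tested members over both genotypes. That is 6 of 55 at an edgeR adjusted p under 0.05, where 10.4% of all 16340 genes passed, 5.7% higher and 4.69% lower. The members that rose were *Kcna5* and *Kcnv2*, which encode voltage-gated subunits, and *Kcne4*, which encodes a single-span auxiliary subunit that inhibits several voltage-gated channels. *Kcnv2* passed the low-count filter through exercised mice only, and it kept this call without the filter. Those that fell were the inward rectifiers *Kcnj2* and *Kcnj8* and the voltage-gated *Kcnd2*. *Kcnd2* passed the low-count filter through rested mice, where it is higher, and it lost this call without the filter. None of the 7 calcium- or sodium-activated genes passed with edgeR or DESeq2, and none of the 6 tandem pore genes passed with edgeR. DESeq2 gave 8 calls, adding *Kcnk6* (adjusted p = 0.035) and *Kcnq1ot1* (0.034), where 11.8% of all genes passed. With blocks of mouse numbers as a term in edgeR there were 9, adding *Kcnk5* (log2 0.48 ± 0.16, adjusted p = 0.049), *Kcnk6* (0.42 ± 0.13, 0.029) and *Kcnq1ot1* (0.35 ± 0.09, 0.010), where 12.5% of all genes passed. The median log2 fold change of the members was 0.011, beside -0.00088 for all tested genes. Leaving out single mice gave 6 to 8 calls, which held these 6 each time. *Kcnk6* was added in 5 of the 25 omissions, *Kcnq1ot1* in 4, *Kcnc2* without mouse 15 and *Kcnk1* without mouse 21.

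*Kcna5*, the Kv1.5 channel of muscle and vessel wall, lies on the minus strand of chromosome 6 at 126532551 to 126535412 (mm10). The 5 WT mice at rest had 9.41, 10.4, 8.40, 9.88 and 8.08 CPM. After exercise WT mice ranged from 18.2 to 23.4 CPM (median 20.9, n = 7). Rested mD3AKO mice ranged from 5.82 to 9.31 CPM (median 7.54, n = 7) and exercised ones from 16.9 to 21.0 (median 20.4, n = 6). All 13 exercised mice were above all 12 rested mice, in both sexes. The rise was 2.42-fold (log2 fold change 1.27 ± 0.07 SE, edgeR adjusted p = 3.0e-13), with 1.17 ± 0.10 in WT and 1.38 ± 0.09 in mD3AKO mice.

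*Kcne4* (chromosome 1, 78816758 to 78820028, plus strand) rose further. Rested WT mice had 3.27, 3.60, 1.30, 2.36 and 3.00 CPM and exercised WT mice 6.59 to 13.0 CPM (median 8.71). In mD3AKO mice the range went from 2.17 to 3.72 CPM (median 2.79) at rest and from 7.42 to 11.0 (median 9.64) after exercise. Again no exercised mouse overlapped with a rested one. The rise was 3.30-fold (log2 1.72 ± 0.14, edgeR adjusted p = 1.2e-09), with 1.73 ± 0.20 in WT and 1.72 ± 0.19 in mD3AKO mice.

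*Kcnj2* (chromosome 11, 111066164 to 111076821, plus strand) fell. It was the member with the highest mean, 157 CPM, and rested WT mice had 188, 156, 203, 170 and 207 CPM. Exercised WT mice had 94.5 to 155 CPM (median 114), rested mD3AKO mice 159 to 245 (median 188) and exercised mD3AKO mice 102 to 150 (median 141). Every exercised mouse was below every rested mouse, although the highest exercised value (155.2 CPM) lay close to the lowest rested value (155.9). The log2 fold change was -0.59 ± 0.09 (edgeR adjusted p = 2.1e-05), a fall of 33.5% that was -0.61 ± 0.12 in WT and -0.57 ± 0.12 in mD3AKO mice. *Kcna5*, *Kcne4* and *Kcnj2* were the 3 members whose rested and exercised mice did not overlap, where 1.07% of all tested genes were separated in this way.

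The other 3 called members changed less or rested on few reads. *Kcnj8* (chromosome 6, 142564837 to 142571614, minus strand) had 32.1, 40.0, 32.2, 32.4 and 35.8 CPM in rested WT mice, 26.1 to 30.8 (median 29.2) in exercised WT mice, 28.0 to 43.8 (median 32.6) in rested and 24.2 to 30.6 (median 25.6) in exercised mD3AKO mice. The groups were separate in WT and overlapped in mD3AKO mice, and the log2 fold change was -0.29 ± 0.06 (edgeR adjusted p = 0.0022; 0.16 in males alone). *Kcnj8* is best known from pericytes and vessels, and markers of these cells are given beside it. Of 10 endothelial markers 5 fell (*Kdr*, *Tek*, *Emcn*, *Cldn5* and *Cdh5*) and 2 rose (*Esam* and *Robo4*), and their sum was 474 to 642 CPM at rest and 425 to 554 after exercise. Of 10 markers of smooth muscle and pericytes, *Pdgfrb* fell and *Cnn1* rose, with no marker of either list at 0 in all libraries. Their sum was 3569 to 4431 CPM at rest and 3629 to 4996 after exercise, of which 78.5% was *Des*, also a muscle fiber marker. The other 9 summed to 785 to 996 CPM at rest (mean 899.6) and 790 to 1019 after exercise (mean 899.4), a sum added after the data were seen. The part of these cells in the fall of *Kcnj8* was not tested.

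*Kcnv2*, a silent subunit that forms channels only with other alpha subunits, lies on chromosome 19 at 27322588 to 27337179 (plus strand). It had 6, 3, 5, 0 and 2 reads in the rested WT mice, or 0.189, 0.0885, 0.154, 0 and 0.0546 CPM. Exercised WT mice had 0.227 to 0.412 CPM (median 0.344), and mD3AKO mice 0.0252 to 0.350 (median 0.205) at rest and 0.166 to 0.510 (median 0.290) after exercise. WT groups were separate and mD3AKO groups overlapped. The log2 fold change was 1.35 ± 0.32 (edgeR adjusted p = 0.0048; 0.068 in females alone), with a wide counting error at this depth. No rested mouse had 10 reads, the minimum count of the filter, so that *Kcnv2* entered the tests through exercised mice, where it is higher. Without the filter it kept the call over both genotypes. *Kcnd2*, the Kv4.2 channel of the A-type current (chromosome 6, 21215503 to 21729805, plus strand), was as low, with 0.472, 0.531, 0.463, 0.448 and 0.491 CPM in rested WT mice and 0.219 to 0.380 (median 0.313) in exercised ones. In mD3AKO mice it ranged from 0.164 to 0.581 CPM (median 0.288) at rest and from 0.102 to 0.307 (median 0.245) after exercise, so that these groups overlapped. Its log2 fold change was -0.65 ± 0.19 (edgeR adjusted p = 0.021), a call that was lost without the low-count filter (adjusted p = 0.066), in males alone (0.36) and in females alone (0.24). Too few exercised mice reached the minimum count to pass the filter by themselves. *Kcnd2* thus entered the tests through rested mice, where it is higher.

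**Figure D2:**
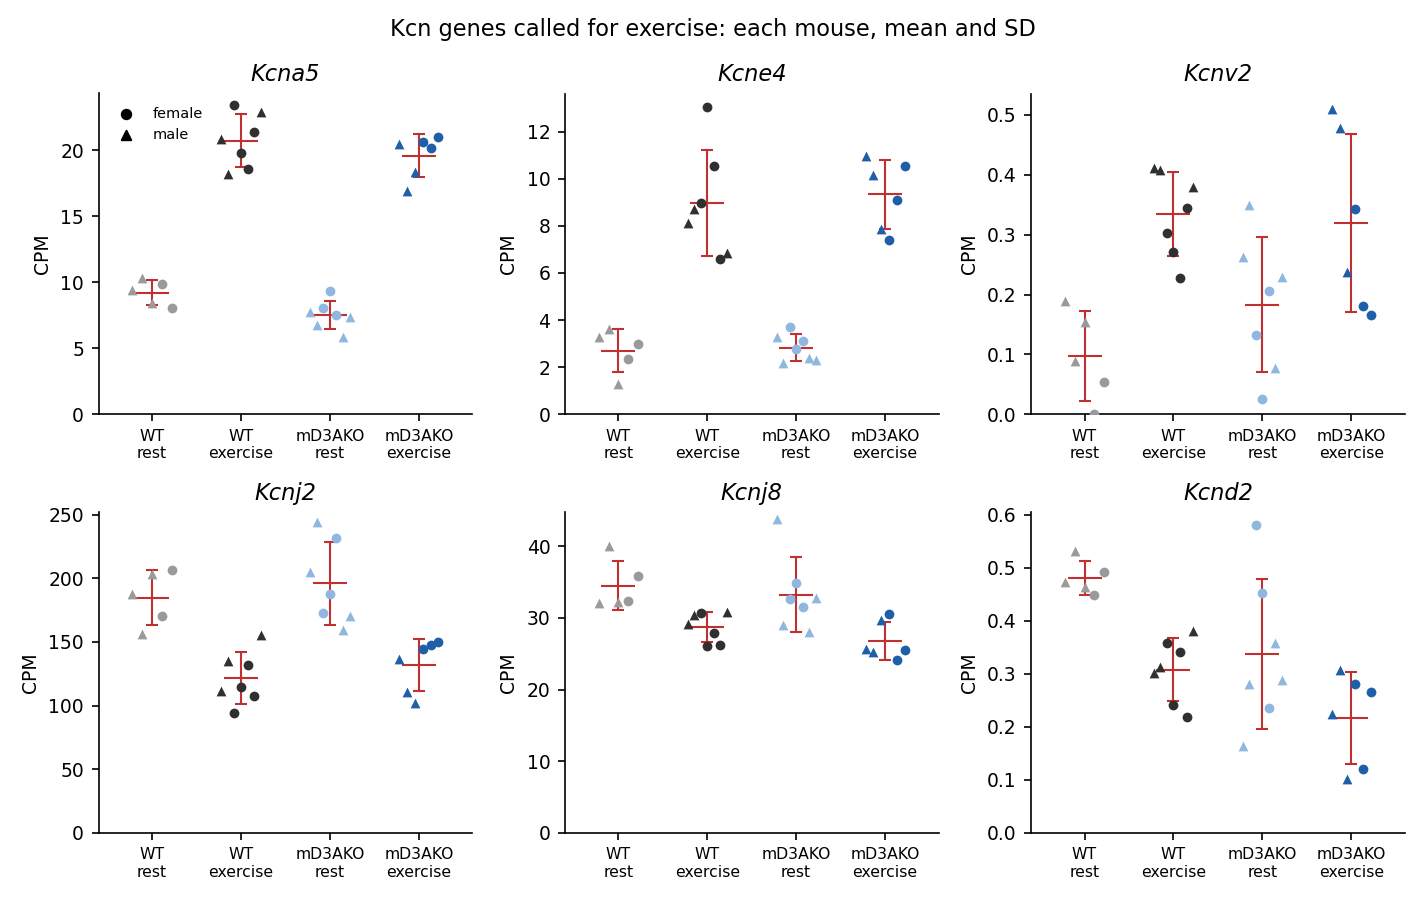
CPM of the 6 Kcn genes called for exercise in each of 25 mice (circles female, triangles male), by group, with the mean and SD in red. Exercised mice of Kcna5 and Kcne4 lie above and those of Kcnj2 below all rested mice, while Kcnj8, Kcnv2 and Kcnd2 show overlap in mD3AKO mice.

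The sequence before the start is shown for the 4 called members with the most reads, because they changed within 60 minutes of exercise. It was read from RefSeq promoter windows (GRCm38.p6, the assembly of mm10), which held an entry for 71 of the 97 members. Each run gives the 250 bases before the RefSeq start site, 5′ to 3′ on the strand of the gene, and the capitals mark matches on either strand to 5 short motifs of factors known from contraction or activity, namely CACGTG (E-box), TGACGTCA (CRE), TGANTCA (AP-1), AAAGGTCA (NR4A) and the MEF2 motif (CTA, 4 bases of any kind, TAG). Of 32851 windows of this length, 6.02% held the first, 1.55% the second, 6.75% the third, 1.34% the fourth and 3.20% the fifth.
*Kcna5*, chr6:126535556-126535805, minus strand: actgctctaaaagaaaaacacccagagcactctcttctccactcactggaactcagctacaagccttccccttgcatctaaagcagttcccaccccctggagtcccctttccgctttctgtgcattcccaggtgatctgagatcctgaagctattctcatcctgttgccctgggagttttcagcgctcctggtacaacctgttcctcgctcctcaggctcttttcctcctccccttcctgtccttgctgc
*Kcne4*, chr1:78816661-78816910, plus strand: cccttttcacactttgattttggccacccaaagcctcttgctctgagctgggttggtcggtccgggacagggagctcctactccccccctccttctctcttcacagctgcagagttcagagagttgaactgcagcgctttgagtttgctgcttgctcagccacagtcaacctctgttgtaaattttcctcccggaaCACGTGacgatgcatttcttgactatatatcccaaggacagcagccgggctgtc
*Kcnj2*, chr11:111065914-111066163, plus strand: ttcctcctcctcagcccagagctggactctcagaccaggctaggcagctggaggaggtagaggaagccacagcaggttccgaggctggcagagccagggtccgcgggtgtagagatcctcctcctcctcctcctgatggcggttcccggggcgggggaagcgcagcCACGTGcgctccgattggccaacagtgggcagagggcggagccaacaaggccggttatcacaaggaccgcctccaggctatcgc
*Kcnj8*, chr6:142571615-142571864, minus strand: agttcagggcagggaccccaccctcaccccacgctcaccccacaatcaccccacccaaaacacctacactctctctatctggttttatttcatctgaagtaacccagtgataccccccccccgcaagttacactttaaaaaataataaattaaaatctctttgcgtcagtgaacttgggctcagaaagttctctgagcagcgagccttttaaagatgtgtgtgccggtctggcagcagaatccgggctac
One E-box stood 54 bases before the start of *Kcne4*, which rose, and one 84 bases before the start of *Kcnj2*, which fell. Neither *Kcna5* nor *Kcnj8* held any of the 5 motifs in this window. The gene model of the count table starts within the window for *Kcne4* and downstream of it for *Kcna5*, so that the start sites of the annotations differ. A match describes letters only, and binding was not analysed here.

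The exercise response was also tested within each genotype. In WT mice 4 of 55 members were called by edgeR (*Kcna5*, *Kcne4*, *Kcnv2* and *Kcnj2*), where 3.59% of all genes passed. In mD3AKO mice 5 of 55 were called (*Kcna5*, *Kcne4*, *Kcnj2*, *Kcnj8* and *Kcnq1ot1*), where 6.02% passed. Rested and exercised mice did not overlap for 6 members in WT (*Kcna5*, *Kcne4*, *Kcnv2*, *Kcnj2*, *Kcnj8* and *Kcnd2*; 3.24% of all genes) and for 3 in mD3AKO mice (*Kcna5*, *Kcne4* and *Kcnj2*; 2.24%). *Kcna5*, *Kcne4* and *Kcnj2* were called in both, but *Kcnj2* was not called in WT males alone (adjusted p = 0.35) or in mD3AKO females alone (0.26). The other calls within a genotype were less stable. *Kcnv2* lost its call in WT mice in 7 of 25 omissions of a mouse, *Kcnj8* its call in mD3AKO mice in 6 and *Kcnq1ot1* in 8. *Kcnv2* and *Kcnj8* also lost these calls without the low-count filter (adjusted p = 0.061 and 0.053) and in either sex alone, and *Kcnq1ot1* in females alone (0.71).

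*Kcnq1ot1*, the long antisense RNA of the imprinted *Kcnq1* domain, was called in mD3AKO and not in WT mice. It had 29.7, 25.2, 33.7, 18.4 and 39.3 CPM in rested WT mice and 24.7 to 44.2 (median 30.0) in exercised WT mice, which overlapped. Rested mD3AKO mice had 21.3 to 36.3 CPM (median 25.2) and exercised ones 35.0 to 44.6 (median 38.7). Its log2 fold change was 0.52 ± 0.15 in mD3AKO (edgeR adjusted p = 0.037) and 0.12 ± 0.16 in WT mice (adjusted p = 0.91), and the difference between these responses was 0.40 ± 0.22 with an unadjusted p of 0.081 and an adjusted p of 1.0. Its exons overlap those of *Kcnq1* on the other strand by 121 bases, and whether the counting used the strand is not given in the sources used here.

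**Figure D3:**
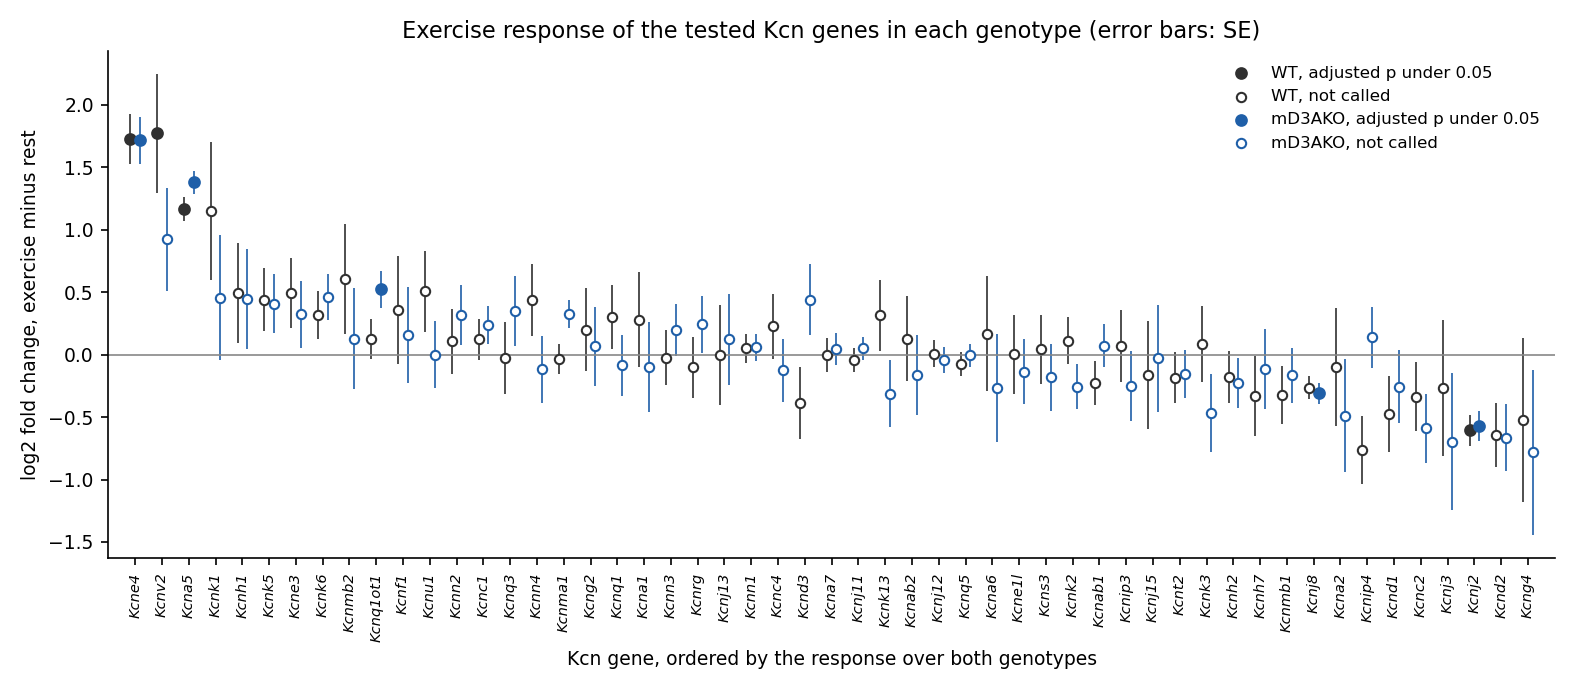
Log2 fold change of 53 of the 55 tested Kcn genes, exercise minus rest, in WT (black) and mD3AKO mice (blue), ordered by the response over both genotypes, with SE as error bars and filled points for an edgeR adjusted p under 0.05. The responses of Kcne4 and Kcnj2 lie on each other in the 2 genotypes, and Kcnq1ot1 and Kcnj8 are filled in mD3AKO mice, Kcnv2 in WT mice.

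The interaction asked whether deletion of *Dnmt3a* changed these responses. No member passed (0 of 55), as no gene of 16340 did (0.0%), by edgeR or by DESeq2. At an unadjusted p under 0.05 there were 2 members by edgeR and 2 by DESeq2, where edgeR had 403 genes and DESeq2 386. *Kcnip4*, a calcium-binding partner of Kv4 channels, had the smallest p (0.021): 0.346, 0.325, 0.309, 0.269 and 0.437 CPM in rested WT mice, 0.156 to 0.282 (median 0.192) in exercised WT mice, 0.173 to 0.490 (median 0.343) in rested and 0.170 to 0.565 (median 0.351) in exercised mD3AKO mice. Its difference of responses was 0.90 ± 0.37 on the log2 scale (edgeR adjusted p = 1.0), and an overlapping gene on the other strand, *5730480H06Rik*, had 1912 reads against its 244. *Kcnma1* followed with 0.36 ± 0.16 (unadjusted p = 0.036), from 119 ± 15.6 to 116 ± 16.9 CPM in WT and from 108 ± 10.2 to 135 ± 29.1 in mD3AKO mice, and *Kcnd3*, another Kv4 channel, with 0.82 ± 0.41 (unadjusted p = 0.053). For *Kcna5*, *Kcne4* and *Kcnj2* the differences of the responses were 0.21 ± 0.13, -0.01 ± 0.27 and 0.04 ± 0.17, each with an adjusted p of 1.0.

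One member, *Kcne1l*, was called for genotype (1 of 55 by edgeR, where 0.269% of all genes passed). With sex as a term, with DESeq2 and with the mouse-number blocks there were 2 calls each, where 0.441%, 0.496% and 0.594% of all genes passed. *Kcne1l*, also named Kcne5, encodes an auxiliary subunit known to inhibit the cardiac slow delayed rectifier, and it lies on the X chromosome at 142304752 to 142306294 (minus strand). Rested WT mice had 1.73, 1.51, 0.895, 1.07 and 1.97 CPM and exercised WT mice 0.815 to 2.88 (median 1.19). Rested mD3AKO mice had 3.99 to 9.48 CPM (median 5.01) and exercised ones 2.63 to 7.64 (median 5.72). All rested mD3AKO mice were above all rested WT mice, where 0.208% of all genes were so separated, and after exercise 1 mD3AKO male (mouse 17, 2.63 CPM) lay below 1 WT male (mouse 9, 2.88 CPM).

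*Kcne1l* was 4.07-fold higher in mD3AKO mice (log2 2.03 ± 0.21, edgeR adjusted p = 1.5e-06), with 2.09 ± 0.31 at rest and 1.96 ± 0.28 after exercise. It was the only member called at rest (1 of 55, with 0.0918% of all genes) and after exercise (1 of 55, with 0.11%). The call at rest was lost in males alone (adjusted p = 0.26) and in females alone (0.19), and that after exercise in males alone (0.49). Over rest and exercise together the log2 difference within sexes was 2.08 in males (adjusted p = 0.044) and 1.91 in females (adjusted p = 0.0012). The genotype effect differed between males and females by 0.16 ± 0.44 on the log2 scale (adjusted p = 1.0, edgeR with 8 groups that split the 4 by sex), a test in which 0 of all genes passed and 280 had an unadjusted p under 0.05, 1 of them a member. It was not called for exercise (log2 -0.07 ± 0.20, adjusted p = 0.92). The 250 bases before its RefSeq start are shown because *Dnmt3a* methylates cytosines in CG pairs, which stand in capitals here.
*Kcne1l*, chrX:142306199-142306448, minus strand: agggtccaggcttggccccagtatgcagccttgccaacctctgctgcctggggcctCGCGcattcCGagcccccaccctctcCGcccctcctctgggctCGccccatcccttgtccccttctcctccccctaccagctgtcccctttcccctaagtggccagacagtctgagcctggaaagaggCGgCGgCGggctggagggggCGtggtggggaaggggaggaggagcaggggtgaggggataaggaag
It held 9 CG pairs, more than 59.7% of the 32851 windows, whose median is 6. None of the 5 motifs matched, and the gene model of the count table starts within this window. Methylation was not analysed here.

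Among the other members with the smallest p, *Kcna5* was not called: its log2 difference was -0.19 ± 0.06 (edgeR adjusted p = 0.46). No member separated the genotypes over rest and exercise, where 0.049% of all genes did.

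Males and females were compared as well. The males were exactly mice 7 to 19, so that sex cannot be told apart from this block of mouse numbers. Over the 4 groups with sex as an added term, 8 of 55 members were called by edgeR, 3 higher and 5 lower in males, where 10.0% of all genes passed, 5.92% higher and 4.11% lower. Leaving out single mice gave 4 to 9 calls, with 4 without mouse 18 and 5 without mouse 16, where 8.54% and 7.65% of all genes passed. *Kcng4*, a silent voltage-gated subunit, had the largest difference. Females had 1.23 to 5.41 CPM (median 2.59, n = 12) and males 3.60 to 25.9 (median 12.2, n = 13), so that it was 4.93-fold higher in males (log2 2.30 ± 0.22, edgeR adjusted p = 1.3e-07). The 2 sexes overlapped in the range from 3.60 to 5.41 CPM.

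*Kcna7*, the member with the highest level per kilobase, was higher in males as well, at 92.4 to 142 CPM (median 126) against 83.9 to 114 (median 96.7) in females (log2 0.34 ± 0.06, adjusted p = 7.9e-04). *Kcnj3*, the Kir3.1 subunit of G protein-gated channels, stood at 0.136 to 0.459 CPM in males and at 0 to 0.226 in females (log2 1.30 ± 0.31, adjusted p = 0.0080) and rested on at most 14 reads per library. It fell under the low-count filter and was not tested in 5 of 25 omissions of a mouse. Among the members lower in males were *Kcnk2*, the mechanosensitive TREK-1 channel (log2 -0.43 ± 0.10, adjusted p = 0.0065), *Kcnj11* (-0.20 ± 0.05, 0.017), *Kcnc4* (-0.53 ± 0.15, 0.025) and the silent subunit *Kcng2* (-0.63 ± 0.20, 0.040). *Kcng2* lost its call in 14 of the 25 omissions and *Kcnc4* without mouse 1 or 18. Fiber type markers differed between the sexes too: all 6 slow fiber markers were lower in males, with a sum of 23205 to 30178 CPM in males and 28515 to 46166 in females. Of 6 fast fiber markers, *Tnnt3* was higher in males, with a sum of 13721 to 27378 CPM in males and 13083 to 23908 in females. The part of fiber type in these differences was not tested. No member passed the test of a difference in exercise response between the sexes (0 of 55 by edgeR with 8 groups, 1 at an unadjusted p under 0.05), where 9 of all genes did.

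**Figure D4:**
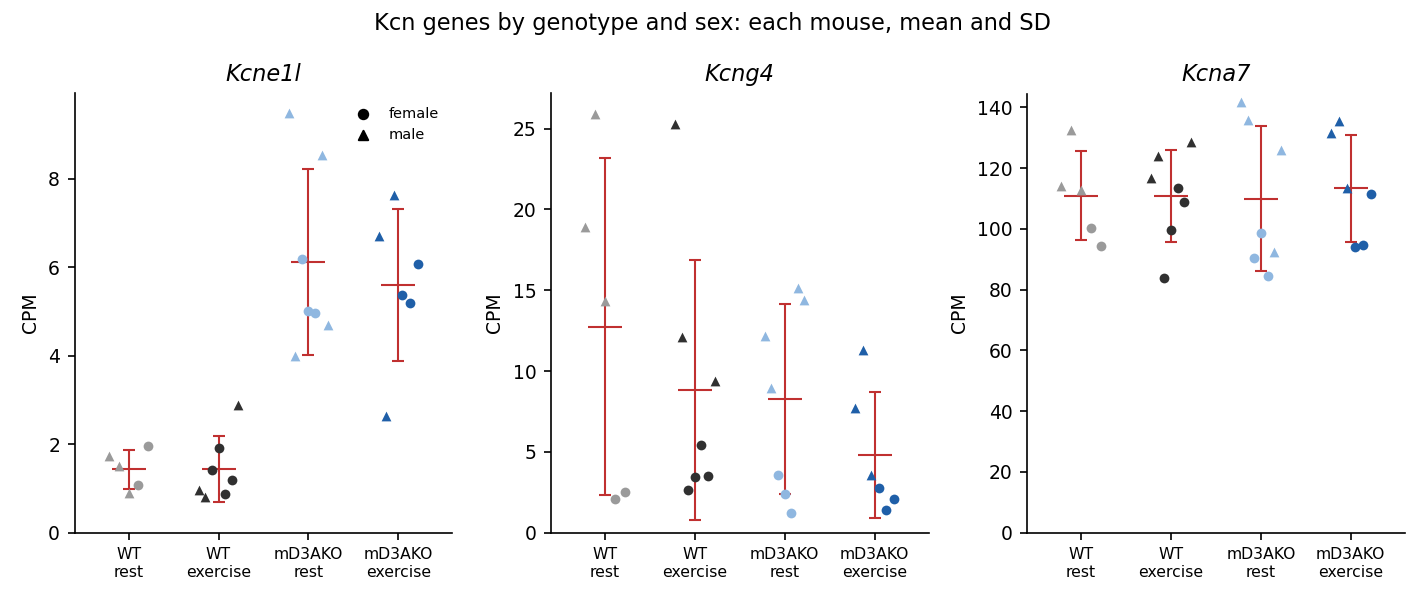
CPM of Kcne1l, Kcng4 and Kcna7 in each mouse (circles female, triangles male), by group, with the mean and SD in red. Kcne1l is higher in mD3AKO mice at rest and after exercise, and for Kcng4 the males lie above the females in each of the 4 groups.

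Several voltage-gated members followed Schwann cell markers between mice, a pattern chosen after their values were seen. *Kcna1*, *Kcna2* and *Kcna6*, channels known from the myelinated axon, and *Kcnk1* were compared with the summed CPM of 9 Schwann cell markers. The sum was 745 CPM in mouse 21 (mD3AKO at rest), 483 and 435 in mice 22 and 25 (WT after exercise), 335 and 274 in mice 10 and 17 (mD3AKO after exercise) and 285 in mouse 20 (WT at rest), against 74.8 to 141 in the other 19. Mouse 21 also had the highest *Kcna1* (5.23 CPM), *Kcna2* (11.1) and *Kcna6* (2.06), and mouse 25 the highest *Kcnk1* (1.92). The 6 mice with the highest marker sum were the 6 with the highest *Kcna6*, and they held ranks 1 to 5 and 7 of 25 for *Kcna2*. The match was looser for the other genes, since mouse 20 ranked 10 for *Kcnk1*, and mouse 2 ranked 5 for *Kcna1* and 21 for the marker sum.

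These 6 mice came from all 4 groups. *Kcna1*, *Kcna2*, *Kcna6* and *Kcnk1* were called neither for exercise nor for genotype, and none of the 9 Schwann cell markers was. Without mouse 21, *Kcnk1* was called for exercise (log2 1.08 ± 0.34, edgeR adjusted p = 0.045), against 0.80 ± 0.37 with all mice (0.20). All 9 Schwann cell markers were detected, and 8 neuronal markers summed to only 3.22 to 8.14 CPM in all mice. The neuronal sum did not follow the Schwann cell sum. It was 4.99, 4.34 and 3.87 CPM in mice 21, 22 and 25 and 3.95, 4.37 and 4.86 in mice 10, 17 and 20. The median of all mice was 4.57 CPM. Of the 8 neuronal markers only 2 passed the low-count filter, and *Stmn2* fell with exercise by edgeR. Their sum was 4.50 to 8.14 CPM at rest and 3.22 to 5.30 after exercise. It was mostly *Stmn2*, with a mean of 3.54 of 4.08 CPM in exercised WT and 4.80 of 5.39 in rested mD3AKO mice. Adipocyte markers moved with the Schwann cell markers in part. The 6 adipocyte markers summed to 843, 768 and 888 CPM in mice 21, 22 and 25, the 3 highest sums (median 366), and to 378, 318 and 521 in mice 10, 17 and 20. Mouse 9 was next with 756 CPM, had a Schwann cell sum of 98.5 CPM and ranked 15, 14, 13 and 19 for *Kcna1*, *Kcna2*, *Kcna6* and *Kcnk1*. The part of nerve or fat in the level of these members was not tested.

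**Figure D5:**
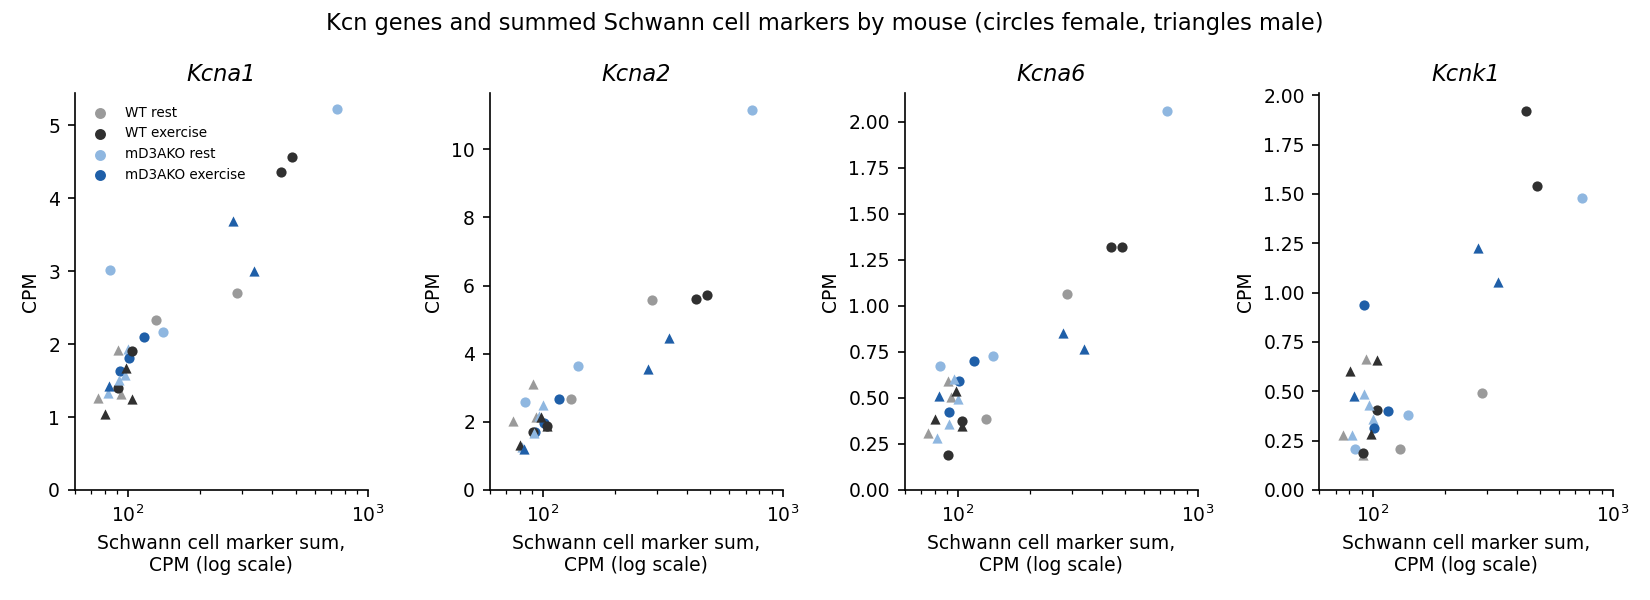
CPM of Kcna1, Kcna2, Kcna6 and Kcnk1 against the summed CPM of 9 Schwann cell markers (log axis) in each of 25 mice, coloured by group, circles female and triangles male. Mouse 21, at 745 CPM of marker sum, has the highest Kcna1, Kcna2 and Kcna6.

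Genes that act with these channels were described from 2 lists. Of 16 channel partners outside the Kcn symbols, 14 were tested and 4 fell with exercise by edgeR, while none rose and none was called for genotype. Of all genes, 4.69% fell. *Akap5*, which anchors kinases at channels, fell from a mean of 4.94 to 2.53 CPM (log2 -0.94 ± 0.15, adjusted p = 7.6e-05). *Lrrc38* and *Lrrc55*, auxiliary subunits of the BK channel, fell by 0.56 ± 0.15 (adjusted p = 0.011) and 0.67 ± 0.21 (0.039) on the log2 scale, and *Dpp6*, an auxiliary subunit of Kv4 channels such as *Kcnd2*, by 0.60 ± 0.19 (0.044). The median log2 fold change of the list was -0.0057, beside -0.00088 for all genes. *Abcc9*, the sulfonylurea receptor of the *Kcnj8* and *Kcnj11* channels, was looked at after its values were seen and had means of 337 CPM at rest and 341 after exercise (log2 0.03 ± 0.05, adjusted p = 0.81).

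Of 26 other ion transport genes of the muscle membrane, all were tested and 2 rose with exercise, a share near the 5.7% of all genes that rose. Of these, *Hcn4*, a hyperpolarization-activated channel, rose from 2.05 to 3.39 CPM (log2 0.78 ± 0.20, edgeR adjusted p = 0.011). The median log2 fold change of the list was 0.015, and none of its genes passed for genotype or the interaction.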

How the data were processed

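RNA of the *soleus* of 25 mice was sequenced. The authors depleted ribosomal RNA, made stranded libraries and read them as 75-bp paired ends, and the submitters' processing notes name FastQC 0.11.5, STAR 2.5.3a, featureCounts 1.5.3 and mm10. The deposited values are raw counts per gene of GENCODE release 15, without normalization. Whether counting used the strand is not given in the sources used here. Symbols came from GENCODE release 21 (52403 of 52636 genes), and 0 columns belonged to other samples.

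Counts were tested with edgeR 4.0.16 (limma 3.58.1, R 4.3.3): TMM, filterByExpr with 4 groups (minimum count 10, minimum total 15), quasi-likelihood F test with 1 mean per group, p-values adjusted by Benjamini-Hochberg over all 16340 tested genes, and calls at an adjusted p under 0.05. SE is the log2 fold change over the square root of F. The spread within groups was taken on log2(CPM + 0.5). Sex was tested as an added term. Alternatives were RLE factors, no filter, DESeq2 1.42.0, sex or blocks of mouse numbers as a term, each sex alone and leaving out each mouse. The blocks were mice 1 to 6, 7 to 19 and 20 to 25. The middle block was all males and the others all females, so that the block term contains sex. The fit with 8 groups was added after the data were seen. The 67 replicate pairs all differed beyond sampling noise (lowest chi-square per gene 13.2), and 0 were identical. The tests were checked on simulated counts. Intervals and floors (3 counts) cover counting error only.

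Members, gene lists and tests were chosen with earlier results of these data known. A rule named members called in any of the 8 contrasts, the 3 highest of each class per kilobase and the 3 smallest p for genotype and for interaction. It also named listed partners called for exercise or genotype. Further members are named for their level, low counts, spread, calls in alternatives or a pattern seen in the data. Some genes that this rule names are not reported here, and they stay in the counts and sums. The lists not printed with values (fibroblasts, immune cells, satellite cells) had 0, 0 and 2 genes called for exercise and 0, 0 and 1 for genotype. The adipocyte list, printed for some mice, had 0 genes called for exercise and 0 for genotype.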

Additional observations from a re-analysis of the deposited data

Results flagged for a closer look

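Of 92 groups of mice examined for the named members, 7 held 1 value far from the rest of its group by Dixon's criterion, where chance gives about 1 in 20. *Kcng4* was 25.3 CPM in male mouse 16 (WT after exercise), with the next mouse at 12.1. *Kcng2* was 2.87 CPM in female mouse 2 (mD3AKO at rest), with the next at 1.21. *Kcnd3* stood apart in 3 groups: it was high at 0.620 CPM in mouse 13 (WT at rest, next 0.401) and low at 0.0766 CPM in mouse 7 (mD3AKO at rest, next 0.290) and at 0.187 CPM in mouse 23 (mD3AKO after exercise, next 0.375). *Kcnk6* was low at 2.23 CPM in mouse 6 (mD3AKO after exercise, next 3.41) and *Kcnk5* high at 2.94 CPM in mouse 25 (WT after exercise, next 2.07).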

How the results depend on the processing

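Of 252 alternative counts of called members, 238 stayed within 1.5 times the count reported. For genotype, sex as an additive term, DESeq2 and the mouse-number blocks each gave 2 in place of 1. For exercise in WT mice, males alone gave 2 in place of 4. For exercise in mD3AKO mice, females alone gave 2 in place of 5, and leaving out single mice gave 3 to 6, with 3 without mouse 3, 6, 12 or 17. For genotype at rest, males alone and females alone gave 0 by edgeR in place of 1, and after exercise males alone gave 0. Fewer of all genes passed as well with 1 sex alone. For exercise over both genotypes the share was 6.01% in males and 3.03% in females, against 10.4% with all mice. For genotype over rest and exercise it was 0.143% in males and 0.0355% in females, against 0.269%. For sex, leaving out single mice gave 4 to 9, with 5 without mouse 16 and 4 without mouse 18. No paired analysis was possible because each mouse number occurs in 1 group only.

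Of 954 alternative log2 fold changes of the named members, 883 kept their direction and side of the threshold, 68 lost the call, 3 gained it and 0 reversed. *Kcna5*, *Kcne4* and *Kcnj2* over both genotypes and *Kcne1l* for genotype kept the call in every alternative run. Within genotypes, *Kcnj2* lost it in WT males (0.35) and mD3AKO females (0.26). *Kcnd2* lost it without the filter (adjusted p = 0.066) and in either sex alone, *Kcnj8* in males alone (0.16) and *Kcnv2* in females alone (0.068). In WT mice *Kcnv2* lost the call in 7 of 25 omissions (mice 1, 5, 9, 13, 16, 18 and 20). In mD3AKO mice *Kcnj8* lost it in 6 (mice 3, 6, 10, 12, 17 and 24) and *Kcnq1ot1* in 8 (mice 2, 3, 6, 8, 12, 15, 17 and 19). For sex, *Kcng2* lost it in 14 and *Kcnc4* in 2 (mice 1 and 18), and *Kcnj3* was under the filter in 5 (mice 7, 10, 12, 16 and 18). The cause was not tested. Genes under 1 CPM, such as *Kcnv2*, *Kcnd2* and *Kcnj3*, rest on few reads, and DESeq2 gave *Kcnj3* no adjusted p.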

Other observations

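Mouse 13, a rested WT male, alone held a high level of *Kcnj10*, a member under the filter and the Kir4.1 channel of glia. It had 34 reads there (1.00 CPM), against at most 11 in the other 24 libraries. The 8 neuronal markers summed to 8.14 CPM in this mouse, the highest of all libraries, and its Schwann cell markers to 90.7 CPM. *Kcnj10* was picked after its values were seen.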
